A study of Mus musculus with 2 samples.

Results

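The natural killer (NK) cells of B16 melanoma tumors were examined in single-cell RNA libraries of sorted live CD45+ cells, where they were 97 of 10801 kept cells. A barcode with at least 200 detected genes and under 10% mitochondrial UMIs (unique molecular identifiers, 1 per captured transcript) was kept as a cell. It was taken as an NK cell when the UMIs of Ncr1, Klrb1c, Klre1, Klra4, Klra7 and Klra8 summed to at least 2. It also had to hold no UMI of Cd3d, Cd3e, Cd3g, Trac, Cd8a or Cd8b1 and at most 1 of the myeloid gene Lyz2. The NK cells were thus selected on the measured UMIs of these 13 genes, whose levels are given as a description only.

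All mice were wild type and had been immunized under the skin of the left flank with irradiated B16 cells that secrete GM-CSF. After 12 days they received live B16 melanoma cells in the right flank, and tumors were harvested 16 days later. The injected cells carried a hairpin that targets Sdc1, which encodes syndecan-1, a heparan sulfate proteoglycan (shSdc1), or a control hairpin that targets RFP (shRFP). One label calls the shSdc1 sample a knockout of Sdc1, whereas its title and growth protocol name a hairpin in the tumor cells. The mice, and so the NK cells, carried no stated change of Sdc1. Each group was 1 library from 6 pooled tumors, so no spread between animals exists, no test between groups was possible, and library and group cannot be told apart. Tumors were digested with collagenases, hyaluronidase and DNase, and red cells were lysed before the sort.

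NK cells are innate lymphocytes that kill target cells and secrete cytokines without a rearranged antigen receptor. Signals from activating receptors such as NKp46 (Ncr1) and NKG2D (Klrk1) are set against those of inhibitory receptors that bind MHC class I. The latter include members of the Ly49 (Klra) and CD94/NKG2 (Klrd1 with Klrc1) families, while other Ly49 members are activating. Killing runs through granules that carry perforin and granzymes, and IL-15, read through Il2rb and Il2rg, maintains the cells. In tumors NK cells are also known as a source of the chemokines Xcl1 and Ccl5, which draw dendritic cells.

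The shRFP library held 4255928 UMIs in 5786 barcodes, of which 5225 were kept, and the shSdc1 library 4370725 UMIs in 5902 barcodes, of which 5576 were kept. The 2 libraries shared 20 barcode sequences, and none of them belonged to an NK cell. The 21 shRFP NK cells held 12313 UMIs, with a median of 357 per cell (246 to 1841). The 76 shSdc1 NK cells held 42080 UMIs, with a median of 432 (257 to 1593). Both libraries thus covered NK cells thinly, and the shRFP library more so. Levels are in CPM (UMIs per 1000000 of the summed cells), with an exact Poisson interval in square brackets. A ratio between libraries is shSdc1 over shRFP with an exact conditional binomial interval, and a share of cells has an exact Clopper-Pearson interval. Intervals are 95% intervals, and they hold counting error alone, without the spread between animals.

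The 6 NK genes of the rule lie on 2 chromosomes in the GENCODE M21 annotation of mm10. Ncr1 is at chr7:4337724-4345164 on the plus strand. The lectin-like receptors lie together on chromosome 6, with Klrb1c (NK1.1) at chr6:128778485-128789215, Klre1 at chr6:129577905-129585827, Klra4 at chr6:130043731-130067271, Klra8 at chr6:130115226-130129898 and Klra7 at chr6:130218605-130233322. Klra4, Klra7 and Klra8 belong to the Ly49 family of close copies. In a search of the last 500 annotated bases, where 3′ libraries are read, no 90-base window of these 3 genes occurred in another family member, while 4.74% of the windows of Klra9 occurred in Klra8.

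RefSeq promoter windows are shown for 3 genes that are the defining NK markers: Ncr1 and Klrb1c, which chose the cells, and Gzma, which did not. Each is 300 bases long, 5′ to 3′ on the strand of the gene, in GRCm38.p6, the assembly also named mm10. The Klrb1c window lies inside the gene as GENCODE M21 places it, downstream of its annotated 5′ end at 128789215. Capitals mark the core motif of Runx factors, which are known regulators of NK receptor genes. That motif was searched as TGTGGT on both strands, so that it also reads ACCACA.
Ncr1, chr7:4337465-4337764, plus strand: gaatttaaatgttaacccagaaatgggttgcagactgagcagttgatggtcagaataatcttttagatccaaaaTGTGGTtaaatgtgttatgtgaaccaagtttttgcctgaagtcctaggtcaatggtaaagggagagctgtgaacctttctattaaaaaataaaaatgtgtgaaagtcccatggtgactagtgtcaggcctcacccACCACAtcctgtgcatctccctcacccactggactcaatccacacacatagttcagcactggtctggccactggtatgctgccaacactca
Klrb1c, chr6:128788592-128788891, minus strand: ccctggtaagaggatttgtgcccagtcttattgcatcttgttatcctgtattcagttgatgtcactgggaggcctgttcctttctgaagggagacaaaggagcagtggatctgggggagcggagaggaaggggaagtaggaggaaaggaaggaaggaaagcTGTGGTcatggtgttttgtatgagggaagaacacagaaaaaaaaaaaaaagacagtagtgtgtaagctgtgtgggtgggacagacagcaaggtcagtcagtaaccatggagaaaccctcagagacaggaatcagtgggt
Gzma, chr13:113100932-113101231, minus strand: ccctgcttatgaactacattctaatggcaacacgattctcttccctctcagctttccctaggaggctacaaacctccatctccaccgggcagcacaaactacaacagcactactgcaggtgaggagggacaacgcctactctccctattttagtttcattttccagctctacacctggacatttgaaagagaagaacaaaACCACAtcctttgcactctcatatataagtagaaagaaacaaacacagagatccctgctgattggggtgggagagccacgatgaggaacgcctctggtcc

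Of 12 fixed NK marker genes, 9 had a promoter window, and 7 of these (Ncr1, Klrb1c, Klre1, Gzma, Klrk1, Prf1 and Nkg7) held the Runx letters, against 18.9% of 27025 genes with a window. A T-box core, searched as TCACAC, was in 3 of the 9 and in 16.4% of genes, and an ETS core, searched as AGGAAG, in 4 of the 9 and in 38.4%. Matches of different motifs may share bases. A match describes letters in a window and does not show binding.

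The NK gene sum that chose the cells was low in most of them. In shRFP 10 of the 21 cells had a sum of exactly 2, 6 had 3, 1 had 4, 2 had 5 and 2 had 6. In shSdc1 49 of the 76 had 2, 12 had 3, 7 had 4, 5 had 5 and 3 had 6. Ncr1, the defining receptor, had 5 UMIs in 5 shRFP cells and 31 UMIs in 24 shSdc1 cells. Klrb1c had 16 UMIs in 13 shRFP cells and 31 in 27 shSdc1 cells, and Klre1, a lectin-like receptor, 17 in 12 and 56 in 40. Among the Ly49 genes, Klra4 was seen in 8 and 21 cells, Klra7 in 8 and 30, and Klra8 in 3 and 11. No single gene thus marked every member, and single cells met the rule through different receptors.

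Cells just outside the threshold, with a sum of 1, numbered 30 in shRFP and 73 in shSdc1. Gzma, outside the rule, stood in them at 1864 CPM [1239 to 2694] and 3094 CPM [2557 to 3711]. Just inside, at a sum of 2, Gzma stood at 4245 CPM [2660 to 6426] and 3816 CPM [3105 to 4642], and at sums of 3 or more at 4628 CPM [3186 to 6500] and 5794 CPM [4671 to 7106]. Cd74, an MHC class II chaperone of antigen-presenting cells, had 70 UMIs in 7 of the 30 shRFP cells with a sum of 1, against 2 UMIs in 1 of the 21 members. The cells left out for other reasons were few: of 28 shRFP cells with a sum of at least 2, 6 held a T cell UMI and 1 held at least 2 Lyz2 UMIs, and of 96 in shSdc1, 16 and 4. Macrophages, which should lack these receptors, held at least 1 UMI of the 6 genes in 0.2502% of cells [0.0516 to 0.729] in shRFP and 0.380% [0.140 to 0.825] in shSdc1, at median depths of 1053 and 847 UMIs.

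NK markers that the rule did not use were present in both libraries. They were chosen with earlier results of these data known, so they describe the label and do not test it. Gzma, a granule protease at chr13:113093825-113100981, stood at 4467 CPM [3365 to 5814] in shRFP NK cells and 4563 CPM [3940 to 5256] in shSdc1 NK cells. It was seen in 13 of 21 cells (61.9% [38.4 to 81.9]) and 41 of 76 (53.9% [42.1 to 65.5]), against 0.167% and 0.443% of macrophages. Klrd1 (CD94), the partner of the NKG2 receptors, stood at 1218 CPM [682 to 2009] and 1426 CPM [1088 to 1835]. Nkg7, a granule membrane protein, stood at 1706 CPM [1056 to 2607] and 2210 CPM [1784 to 2707], and was seen in 13 and 53 cells.

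The 16 lineage transcription factor genes summed to 4629 CPM and 3470 CPM in NK cells, against 2557 CPM and 2696 CPM in CD8 T cells. Id2, which all innate lymphoid cells need, had 12 and 41 UMIs, while transcripts that tell NK cells from related lymphocytes were few. Eomes, which defines conventional NK cells against type 1 innate lymphoid cells (ILC1), had 4 UMIs in 4 of 21 shRFP cells and 13 in 11 of 76 shSdc1 cells, and in macrophages 1 and 2 UMIs. Of 13 ILC1-associated genes found in the files, 6 were at 0 in the NK cells, and none reached 20 UMIs over both libraries. Itga1 (CD49a) had 1 and 3 UMIs, Cxcr6 0 and 3, and Il7r 0 and 4. The list summed to 162 CPM in shRFP NK cells and 523 CPM in shSdc1 NK cells, which was 2 UMIs and 22 UMIs. At this depth neither Eomes nor the ILC1 genes can place a single cell.

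Markers of other cell types were at or near 0. In the NK cells of both libraries the 7 melanoma, 5 red cell and 7 mast cell or basophil genes had no UMI, and the 7 neutrophil genes had 1. The 16 macrophage genes outside the rule summed to 13 UMIs in shRFP and 23 in shSdc1, at most 0.577% and 0.351% of the UMIs of any cell. Spp1 (osteopontin) gave 12 of the 13, in 2 cells, while 7 of the 16 were at 0. The MHC class II genes summed to 4 and 22 UMIs, the dendritic cell genes to 0 and 4, and the B cell genes to 0 and 8, all 8 from Ighm. The ILC2 and ILC3 genes summed to 1 and 4 UMIs, all from Gata3.

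T cell transcripts outside the rule were the exception. The 14 genes of that list summed to 1543 CPM and 1307 CPM in NK cells, against 4406 CPM and 4484 CPM in CD8 T cells. At least 1 of them was seen in 12 of 21 shRFP and 36 of 76 shSdc1 NK cells. In CD8 T cells this was so for 188 of 224 and 356 of 396. Trbc1, a constant gene of the T cell receptor beta chain, stood at 975 CPM [504 to 1702] in shRFP NK cells and 713 CPM [481 to 1018] in shSdc1 NK cells. In CD8 T cells of the same libraries it stood at 1494 CPM [1308 to 1700] and 1049 CPM [939 to 1170]. Trbc2, the second beta constant gene, was low instead, at 325 CPM [88.5 to 832] and 214 CPM [97.8 to 406] in NK cells against 1540 CPM [1351 to 1748] and 1884 CPM [1735 to 2043] in CD8 T cells. Trbc1 was seen in 8 of 21 and 23 of 76 NK cells, and in 0.334% and 0.823% of macrophages. Thinned to 300 UMIs per cell, which left out 6 and 5 shallower cells, it was seen in 4 of 15 (26.7% [7.79 to 55.1]) and 18 of 71 (25.4% [15.8 to 37.1]). In CD8 T cells thinned alike it was seen in 60 of 205 (29.3% [23.1 to 36.0]) and 82 of 371 (22.1% [18.0 to 26.7]). At this depth the share of cells with Trbc1 thus did not separate the 2 classes. Trdc, the delta chain constant gene, had 2 and 7 UMIs, and Cd28 0 and 5. The part of T cells in this signal was not tested.

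NK cells were set against CD8 T cells (224 shRFP and 396 shSdc1 cells with UMIs of a Cd3 or Trac gene and of Cd8a or Cd8b1, none of the 6 NK genes and at most 1 Lyz2 UMI) to show where the lymphocytes differ. Of 246 genes outside the rule with at least 30 UMIs in NK cells, 11 (4.47%) were at least 2-fold higher in NK cells in both libraries. These were Ccr2, Fcer1g, Gzma, Gzmc, Irf8, Jak1, Klrd1, Klrk1, Ptprc, Tyrobp and Ugcg. Without 1 shRFP cell rich in granzymes, described with the granule genes, the shRFP ratio of Jak1 was 1.11 instead of 2.26 and that of Gzmc 8.66 instead of 159. Of 2654 genes with at least 30 UMIs in CD8 T cells, 40 (1.51%) were at least 2-fold lower in NK cells in both. A gene at 0 in a library was set to a floor of 3 UMIs there for these counts. Depth and the floor thus limit the count of lower genes. Cd6, with 0 UMIs in NK cells against 26 (shRFP) and 88 (shSdc1) in CD8 T cells, could not be counted. Its ratio at the floor was 1.45 in shRFP. Both comparisons are descriptions, and cells of 1 library are not replicates.

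The signalling adaptors of NK receptors stood out against CD8 T cells. Tyrobp (DAP12) couples activating Ly49 members and other activating receptors to kinases. It stood at 1624 CPM [992 to 2509] in shRFP NK cells and 2234 CPM [1805 to 2734] in shSdc1 NK cells. In CD8 T cells it had 0 UMIs in shRFP and 48.1 CPM [26.9 to 79.4] in shSdc1. The ratio of NK over CD8 T cells thus had only a lower interval bound in shRFP, 62.2-fold. In shSdc1 NK cells were 46.4-fold [26.7 to 86.2] higher. Fcer1g, the Fc receptor gamma chain, which also serves NKp46, was 50.4-fold [16.3 to 207] and 21.2-fold [13.0 to 35.8] higher. Macrophages use the same adaptors and held Tyrobp at 1428 CPM and 1703 CPM. Receptors shared with CD8 T cells differed less: Klrd1 was 2.25-fold [1.21 to 3.93] and 3.15-fold [2.29 to 4.29] higher, and Klrk1 (NKG2D) 5.73-fold [2.42 to 12.6] and 3.46-fold [1.96 to 5.92].

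Among the granule genes Gzma was far above its CD8 T cell level in both libraries. It had 55 UMIs in shRFP NK cells against 4 in CD8 T cells, a 173-fold higher level [64.0 to 659], and in shSdc1 192 against 10, 142-fold [75.6 to 301]. Gzmb, the granzyme best known from killer T cells, was 3.51-fold [2.20 to 5.42] and 1.76-fold [1.31 to 2.31] higher in NK cells, but 17 of its 27 shRFP UMIs came from the granzyme-rich cell named above, and without it the shRFP ratio was 1.49 [0.692 to 2.86]. Prf1 (perforin) was 3.81-fold [2.03 to 6.76] and 1.82-fold [0.961 to 3.24] higher, with 8 of its 16 shRFP UMIs in the same cell and a shRFP ratio of 2.18 [0.895 to 4.61] without it. Nkg7 stood slightly below CD8 T cells, at 0.830 [0.507 to 1.29] and 0.887 [0.708 to 1.10]. Ccl5 stood at 0.810 [0.548 to 1.16] in shRFP and at 0.634 [0.522 to 0.764] in shSdc1, where its interval lay below 1. Gzma thus set NK cells apart from CD8 T cells as defined here, whereas Nkg7 differed from them by less than counting error. The CD8 T cell rule left out every cell with a UMI of the NK genes that chose the members. Among all kept cells, barcodes with a T cell UMI held 19 of 169 Gzma UMIs in shRFP and 142 of 609 in shSdc1. How far the Gzma ratios depend on that exclusion was not tested.

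Ccr2, a chemokine receptor of monocytes and NK cells, was 12.6-fold [4.12 to 38.5] and 3.41-fold [1.98 to 5.69] higher than in CD8 T cells. Ptprc, which encodes the CD45 used for the sort, was 2.79-fold [1.77 to 4.26] and 2.12-fold [1.63 to 2.71] higher, and Ugcg, a glycolipid synthase, 3.03-fold [1.47 to 5.76] and 4.83-fold [3.27 to 7.08]. Irf8, a transcription factor, was 4.97-fold [2.40 to 9.69] and 3.70-fold [2.19 to 6.099] higher. Its 13 shRFP UMIs came from 6 cells and its 25 shSdc1 UMIs from 16.

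The inflammatory chemokines Ccl3 and Ccl4 were lower in NK cells. Ccl3 had 2 and 7 UMIs, 0.162 [0.0194 to 0.594] and 0.270 [0.107 to 0.567] of the CD8 T cell level, and Ccl4 5 and 20 UMIs, 0.311 [0.0998 to 0.737] and 0.299 [0.181 to 0.466]. Nr4a2, an orphan receptor gene induced by antigen receptor signals, stood at 0.321 [0.0652 to 0.960] and 0.172 [0.0464 to 0.449] of the CD8 T cell level, and Ifi27l2a, an interferon-inducible gene, at 0 UMIs (95% upper bound 0.611) and 0.0570 [0.00686 to 0.208]. Klf6, Ms4a6b, Pgam1 and Pgk1 were the other named genes, between 0.158 and 0.499 of the CD8 T cell level. Pdcd1 (PD-1) had no UMI in any NK cell, and the 95% upper bounds were 0.682 and 0.213 of the CD8 T cell level, so depth limits the statement in shRFP. Ctla4 had 0 and 1 UMIs and Lat, an adaptor of the T cell receptor, 0 and 2. Other genes of the same lists were not as low: Lck, a kinase of that receptor, stood at 0.435 [0.0514 to 1.64] and 0.823 [0.437 to 1.43] of the CD8 T cell level. The 18 inhibitory receptor genes outside the rule summed to 2193 CPM and 2567 CPM in NK cells against 2164 CPM and 1945 CPM in CD8 T cells. The 21 receptor signalling genes summed to 3898 CPM and 3969 CPM against 4174 CPM and 4551 CPM.

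**Figure D1:**
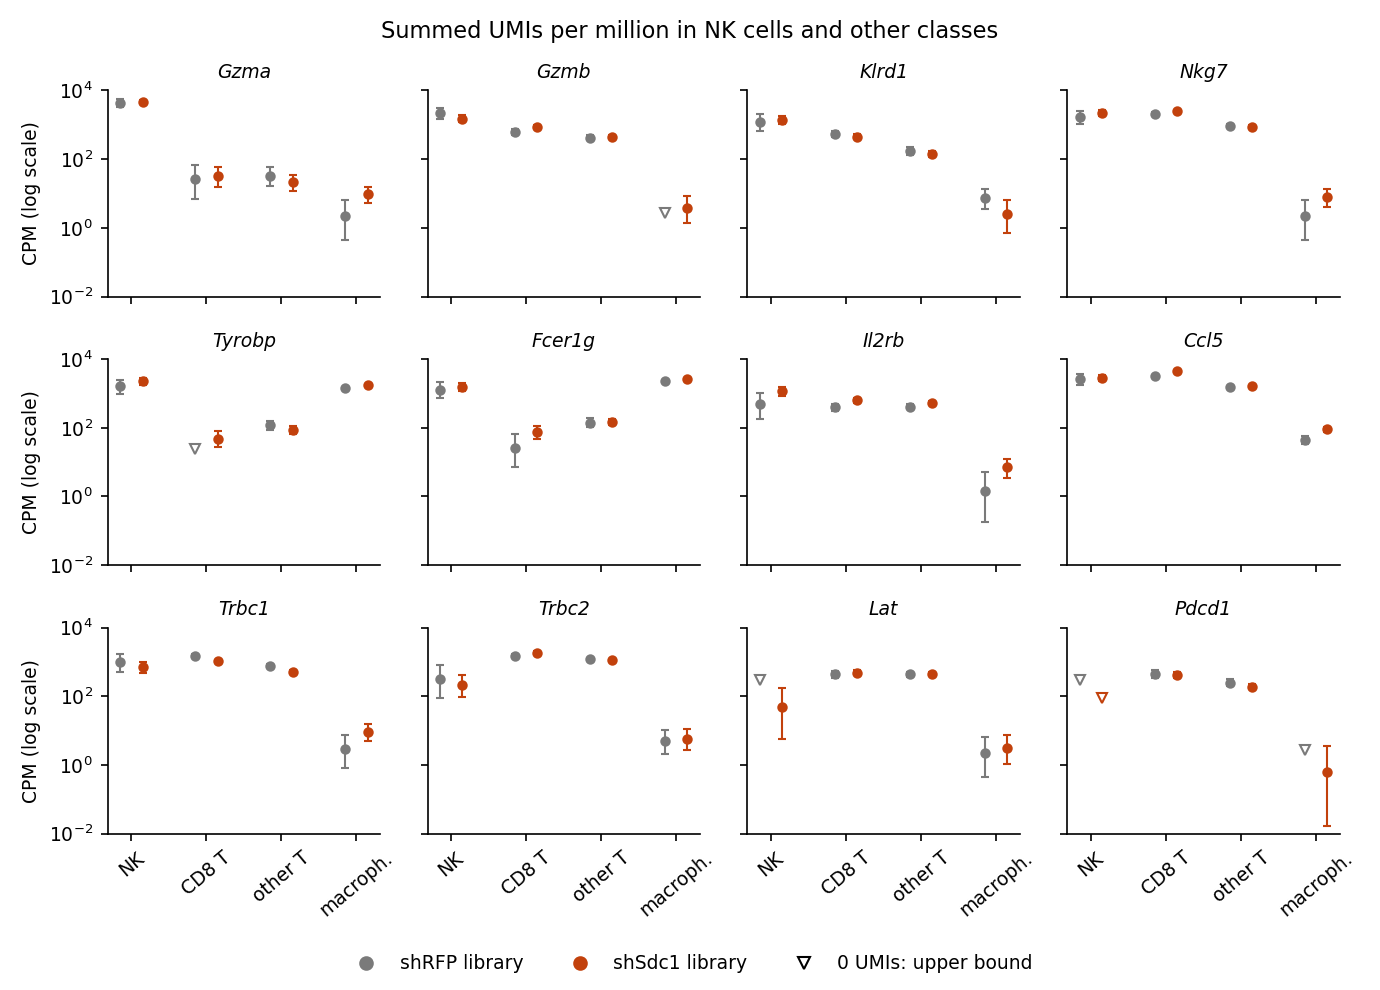
CPM on a log axis of 12 genes outside the member rule, summed over the NK cells, CD8 T cells, other T cells and macrophages of each library. Points are summed levels, bars exact Poisson 95% intervals, and open triangles the upper bound of a class with 0 UMIs. Gzma stood at 4467 CPM and 4563 CPM in NK cells and at 32.8 CPM or less in the other classes, Tyrobp and Fcer1g were high in NK cells and macrophages, and Trbc2, Lat and Pdcd1 were higher in T cells than in NK cells.

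NK cells made up more of the shSdc1 library. They were 21 of 5225 kept cells in shRFP (0.402% [0.249 to 0.614]) and 76 of 5576 in shSdc1 (1.36% [1.08 to 1.70]), a ratio of 3.39 [2.07 to 5.79]. CD8 T cells and other T cells had ratios of 1.66 [1.40 to 1.96] and 1.70 [1.54 to 1.89], and macrophages 1.23 [1.14 to 1.33]. Among cells with at most 1 Lyz2 UMI the NK ratio was 2.71 [1.66 to 4.64]. With NK and T cells alone as the denominator, the share was 2.46% [1.53 to 3.73] in shRFP and 4.81% [3.81 to 5.98] in shSdc1, and their ratio was 1.96 [1.19 to 3.34]. The intervals of the 2 libraries did not overlap for any of these 3 denominators.

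The rule needs UMIs, so deeper cells meet it more readily. With every cell thinned to 300 UMIs, 9 of 4822 shRFP cells and 40 of 5029 shSdc1 cells met it, a ratio of 4.26 [2.04 to 9.99], and at 500 UMIs 6 of 3532 and 24 of 3369, a ratio of 4.19 [1.67 to 12.5]. With at least 500 genes per barcode only 5 and 12 NK cells were left, and the ratio among NK and T cells was 1.07. With no replicate library, a difference between pools, sorts or captures cannot be told apart from the hairpin. These are shares of sorted cells, and numbers of NK cells per tumor were not measured.

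**Figure D2:**
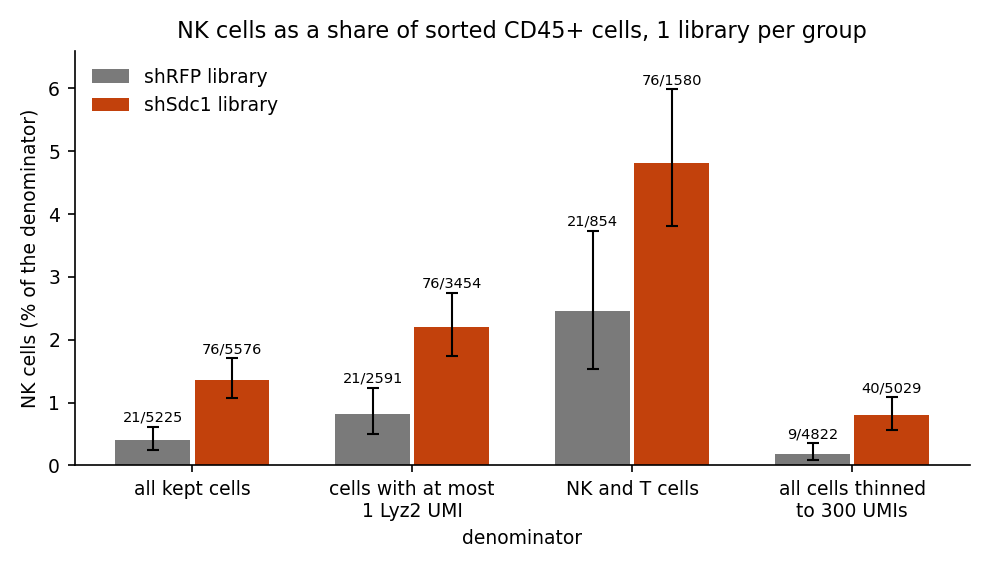
Share of NK cells in percent (y axis) over 4 denominators (x axis) in the shRFP and shSdc1 libraries, with exact 95% intervals as bars and the counts above them. NK cells were 0.402% and 1.36% of all kept cells and 2.46% and 4.81% of NK and T cells.

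Within the NK cells, 369 genes had at least 20 UMIs over both libraries. Of these 72 (19.5%) were at least 1.5-fold higher in shSdc1 and 56 (15.2%) at least 1.5-fold lower, and the median log2 ratio was 0.09. Both directions thus held a like number of genes. The split depends on the scaling: TMM and median-of-ratios scaling over all genes added 0.53 and 0.64 to every log2 ratio and gave 190 higher with 21 lower and 212 higher with 16 lower. Median-of-ratios scaling over the 369 genes alone, an alternative added after the data were seen, moved every log2 ratio by -0.09.

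The 17 genes named for their ratio were picked from 71 candidate genes with at least 30 UMIs. They had to pass 1.5-fold and were ranked by the interval bound nearest to 1. Their intervals thus describe genes chosen on the same values and do not test them. Of the 17, 6 had an interval that left out 1: Malat1, Xcl1, Btf3 and B2m above it, Anxa2 and Ubb below it. Malat1, a nuclear RNA, had 69 UMIs in 20 of 21 shRFP cells and 446 in 75 of 76 shSdc1 cells, a ratio of 1.89 [1.47 to 2.47]. In CD8 T cells its ratio was 1.11 [1.02 to 1.20] and in other T cells 1.02 [0.972 to 1.06]. Btf3, a translation and transcription factor, had 4 and 42 UMIs, 3.07 [1.11 to 11.8]. B2m, the light chain of MHC class I, had 23 and 131 UMIs, 1.67 [1.06 to 2.72], beside 1.08 [0.951 to 1.23] in CD8 T cells and 1.503 [1.44 to 1.57] in macrophages. Anxa2, a membrane-binding annexin, had 22 and 34 UMIs, 0.452 [0.257 to 0.812], and the ubiquitin gene Ubb 44 and 92, 0.612 [0.423 to 0.897]. Without the cell of each library that held the most UMIs of the gene the Anxa2 and Ubb intervals reached 1.03 and 1.04. The others also moved under 1.5-fold in an alternative, Malat1 to 1.29 and B2m to 1.499 with a sum of at least 1, and Btf3 to 1.41 and B2m to 1.33 with cells thinned to 300 UMIs, while Xcl1 lay between 1.76 and 5.11.

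The other named genes had intervals that held 1. Ratios between 1.54 and 2.49 were found for Ifngr1, Ctla2a, Ctsd, Cyba, Ctsw, Hnrnpa3 and Ptpn18, and between 0.564 and 0.652 for H2az1, Lgals1, Actr3 and Arpc3. Actr3 and Arpc3, subunits of the actin-branching Arp2/3 complex, stood at 0.564 [0.286 to 1.16] and 0.608 [0.303 to 1.28] in NK cells, whereas in CD8 T cells they stood at 1.27 [1.01 to 1.60] and 1.43 [1.11 to 1.84]. With an NK gene sum of at least 3, Actr3 stood at 0.823 and Arpc3 at 1.27 in NK cells, so the contrast does not hold for Arpc3 there. The difference between the classes was not tested.

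**Figure D3:**
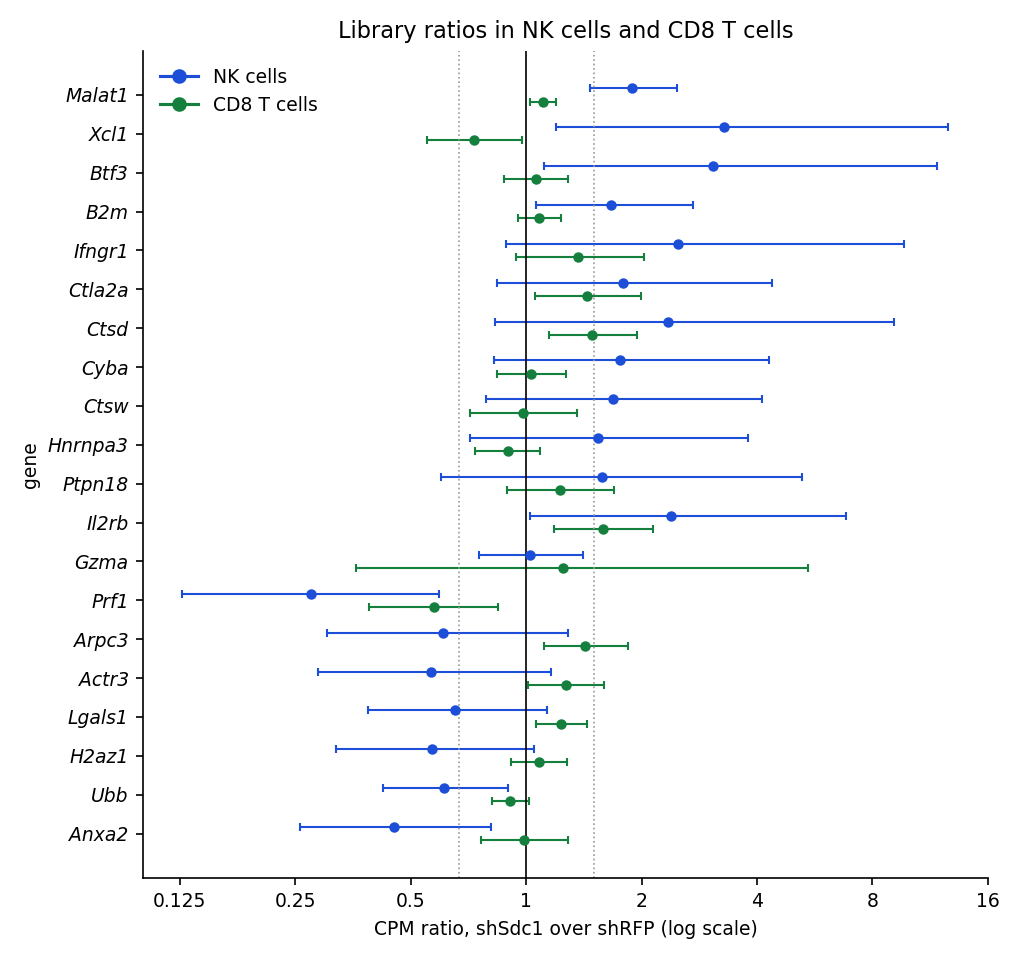
CPM ratio of shSdc1 over shRFP on a log axis for the 17 named genes and for Il2rb, Gzma and Prf1, in NK cells and in CD8 T cells. Points are ratios, bars exact conditional 95% intervals, the solid line a ratio of 1 and the dotted lines 1.5-fold either way. The NK bars are wider than the CD8 T bars for most genes, and Xcl1 lay above 1 in NK cells and below 1 in CD8 T cells.

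The receptor genes that could be measured had intervals that held 1. Of 19 activating receptor and adaptor genes outside the rule 3 had enough UMIs, with a median log2 ratio of 0.27. None was at least 1.5-fold higher and 1 was lower, beside 19.5% and 15.2% of all measured genes. Tyrobp had 20 and 94 UMIs, 1.38 [0.842 to 2.35], and Fcer1g 16 and 66, 1.21 [0.691 to 2.23]. Klrk1 had 10 and 21 UMIs, 0.614 [0.277 to 1.46]. Of 18 inhibitory receptor genes outside the rule only Klrd1 was measured, with 15 and 60 UMIs, 1.17 [0.656 to 2.22]. Klrc1 (NKG2A) had 5 and 11 UMIs, Klrc2 (NKG2C) 3 and 12, Klra3 0 and 9, Klrg1 1 and 1, and Tigit and Pdcd1 none. Receptor signalling genes were measured only for Rac2, 0.933 [0.523 to 1.75], and Sh2d2a, 1.17 [0.378 to 4.81].

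The cytokine receptor and STAT list had the highest median. Of its 28 genes 4 were measured, with a median log2 ratio of 0.77, against 0.09 over all genes measured, with 2 genes higher and 0 lower, and it lay between 0.65 and 2.22 in 12 alternatives. Of all measured genes 19.5% were higher and 15.2% lower, so 0 lower of 4 genes is near the background. Il2rb, the beta chain shared by the IL-2 and IL-15 receptors, had 6 UMIs in 4 of 21 shRFP cells and 49 UMIs in 37 of 76 shSdc1 cells, which is 487 CPM [179 to 1061] against 1164 CPM [861 to 1539] and a ratio of 2.39 [1.02 to 6.83]. The ratio ran from 1.33 with at least 500 genes per barcode to 6.13 with cells thinned to 300 UMIs, so the former is under 1.5-fold. Thinned to 300 UMIs it was seen in 0 of 15 cells [0 to 21.8%] and 20 of 71 (28.2% [18.1 to 40.1]), and in 0 and 0.388% of macrophages. T cells thinned alike also held it: 8.29% and 20.2% of CD8 T cells and 13.1% and 15.8% of other T cells. Il2rb was thus not particular to NK cells. The same gene had ratios of 1.59 [1.18 to 2.15] in CD8 T cells and 1.31 [1.08 to 1.60] in other T cells.

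Ifngr1, a chain of the interferon gamma receptor, had 4 and 34 UMIs, 2.49 [0.887 to 9.65], and Jak1, the kinase of both receptors, 7 and 29, 1.21 [0.520 to 3.28]. Pim1, a STAT5 target, had 8 and 19 UMIs, 0.695 [0.290 to 1.84]. Among members with too few UMIs Il2rg had 1 and 15, Il18rap 0 and 13 and Bcl2 1 and 12. The whole list summed to 39 UMIs in shRFP and 258 in shSdc1, 3167 CPM and 6131 CPM, a ratio of 1.94 [1.38 to 2.79].

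Gzma, the granule gene that marks these cells, differed between the libraries by less than counting error, while 1 shRFP cell carried every Gzmd, Gzme, Gzmf and Gzmg UMI of the 97 NK cells. Gzma had 55 UMIs in shRFP and 192 in shSdc1, a ratio of 1.02 [0.753 to 1.40]. In shRFP its UMIs per cell ran from 0 to 16 and in shSdc1 also from 0 to 16. Cells with 5 or more Gzma UMIs were 3 of 21 and 16 of 76. Gzmb was seen in 5 of 21 (23.8% [8.22 to 47.2]) and 24 of 76 (31.6% [21.4 to 43.3]), and both granzymes together in 4 and 18 cells. Cells with none of Gzma, Gzmb and Gzmc were 6 of 21 (28.6% [11.3 to 52.2]) and 26 of 76 (34.2% [23.7 to 46.0]). The libraries thus held cells with and without granzyme UMIs in shares that overlapped within counting error.

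The list of 25 granule and killing genes had 14 measured members, 3 of them higher and 7 lower, beside 19.5% higher and 15.2% lower of all measured genes, and its median log2 ratio was -1.02. Of the 7, 5 are neighbours in the granzyme cluster on chromosome 14, which runs from Gzme (from 56117626) over Gzmd, Gzmg, Gzmf and Gzmc to Gzmb (to 56262260). A shRFP NK cell with 1561 UMIs held 303 UMIs (19.4% of its total) of these 5: 60 of Gzmc, 28 of Gzmd, 23 of Gzme, 38 of Gzmf and 154 of Gzmg. Besides these it held 17 Gzmb, 8 Prf1 and 0 Gzma UMIs, and had an NK gene sum of 2. It also held 9 of the 12 Spp1 UMIs of its group. The 3′ ends of Gzmd and Gzme share 1.70% of their 90-base windows, and those of the other granzymes none.

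Without that cell the list median was 0.63, in the opposite direction, and the Gzmc ratio was 5.28 instead of 0.288 [0.199 to 0.416]. The Gzmb ratio was 1.64 instead of 0.694 [0.436 to 1.13] and the Gzma ratio 0.892. Gzmc in shSdc1 had 62 UMIs in 8 of 76 cells, 33 of them in 1 cell. The Prf1 ratio stayed below 1. Prf1 had 16 UMIs in 5 of 21 shRFP cells (23.8% [8.22 to 47.2]) and 15 in 14 of 76 shSdc1 cells (18.4% [10.5 to 29.0]). These shares overlapped, while the levels were 1299 CPM [743 to 2110] and 356 CPM [199.5 to 588]. Its ratio was 0.274 [0.126 to 0.592]. Without the cell 8 shRFP UMIs were left, and the ratio was 0.479, given here without an interval, so a lower level is not shown there. Prf1 was also lower in shSdc1 in CD8 T cells, 0.573 [0.390 to 0.845], and other T cells, 0.5001 [0.284 to 0.882]. Ctsw, Ctsd and Serpinb9, which encode 2 lysosomal proteases and a granzyme B inhibitor, were the 3 higher members, at 1.68 [0.786 to 4.13], 2.34 [0.830 to 9.11] and 1.76 [0.513 to 9.30].

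**Figure D4:**
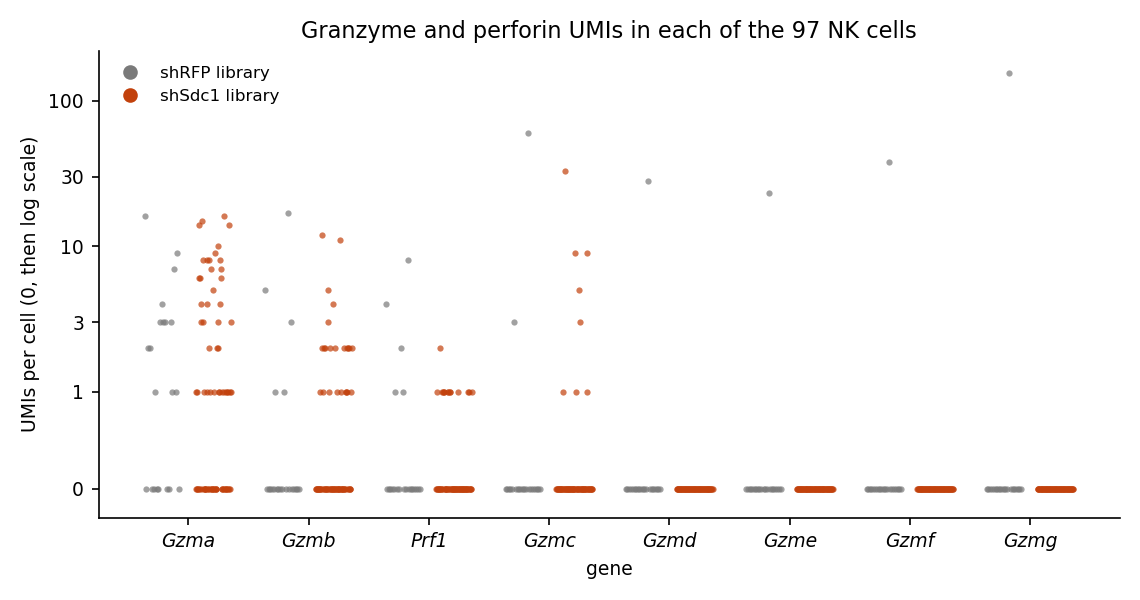
UMIs per cell (0, then a log scale) of 6 granzyme genes beyond Gzma, of Gzma and of Prf1 in each of the 97 NK cells, as points by library. Gzma ran from 0 to 16 UMIs in both libraries, whereas Gzmd, Gzme, Gzmf and Gzmg were each seen in 1 shRFP cell only, which held 154 Gzmg UMIs.

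Among 19 cytokine and chemokine genes 5 were measured, 2 of them higher and 1 lower, beside 19.5% and 15.2% of all measured genes, and their median log2 ratio was 0.23. Xcl1, the ligand of Xcr1 on type 1 dendritic cells, had 4 UMIs in 4 of 21 shRFP cells and 45 in 24 of 76 shSdc1 cells, which is 325 CPM [88.5 to 832] against 1069 CPM [780 to 1431] and a ratio of 3.29 [1.20 to 12.6]. Thinned to 300 UMIs it was seen in 1 of 15 cells (6.67% [0.169 to 31.9]) and 15 of 71 (21.1% [12.3 to 32.4]). In CD8 T cells Xcl1 stood at 548 CPM and 401 CPM, a ratio of 0.733 [0.552 to 0.977], and in macrophages it had 1 and 0 UMIs. Set against CD8 T cells of its own library, Xcl1 in NK cells was 2.67-fold [1.85 to 3.78] higher in shSdc1 and stood at 0.593 [0.158 to 1.58] in shRFP.

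Ccl5 had 32 and 120 UMIs, 1.10 [0.738 to 1.68], and Ltb, a lymphotoxin chain, 3 and 24, 2.34 [0.711 to 12.1]. Mif, a secreted inhibitory factor of macrophage migration, had 12 and 15 UMIs, 0.366 [0.160 to 0.856]. Ifng, the cytokine NK cells are best known for, had 1 and 4 UMIs, too few for a ratio, and Csf2, Areg and Il10 had none. In CD8 T cells Ifng stood at 554 CPM [443 to 684] and 379 CPM [313 to 454], against 81.2 CPM [2.06 to 453] and 95.1 CPM [25.9 to 243] in NK cells.

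Migration and maturation genes were sparse. Of 26 migration and residency genes 5 were measured, 2 of them higher and 0 lower, beside 19.5% and 15.2% of all measured genes, and their median log2 ratio was 0.55. Selplg, a ligand of adhesion receptors on vessels, had 4 and 24 UMIs, 1.76 [0.603 to 6.96], and Ccr2 8 and 23, 0.841 [0.363 to 2.18]. The integrin genes Itgax and Itgam had 0 and 12 and 0 and 5 UMIs. Of 16 maturation genes 3 were measured, with a median of 0.23. Ctla2a, a cathepsin inhibitor, had 8 and 49 UMIs, 1.79 [0.842 to 4.38], and the maturation markers Cd27 and Klrg1 had 1 and 5 and 1 and 1. None of the 13 TGF-beta and adenosine genes was measured.

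Activation, metabolic and cycling lists had medians below 0, each smaller in size than the TMM and median-of-ratios shifts, so that their sign turns with these scalings. Without the cell of each library with the most UMIs of a gene, the glycolysis median was 0.34 and those of the proliferation, heat shock and cytoskeleton lists 0.16, 0.23 and 0.30. The counts of each list are to be read beside 19.5% higher and 15.2% lower of all measured genes. The immediate early list had a median log2 ratio of -0.51 over 8 of 27 genes, 3 lower. Among the 3 was Dusp2, a phosphatase induced by activation, with 12 and 13 UMIs, 0.317 [0.133 to 0.760]. Glycolysis and hypoxia genes had a median of -0.34 over 7 of 20, 3 lower. Gapdh had 31 and 53 UMIs, 0.5003 [0.315 to 0.806], and in macrophages its ratio was 0.798 [0.769 to 0.829]. Oxidative phosphorylation had -0.36 over 9 genes with 3 each way, cytoskeleton and synapse genes -0.11 over 13 with 1 each way, heat shock genes -0.15 over 4 with 1 each way, and lineage transcription factors -0.31 over 3, with Irf8 at 0.563 [0.277 to 1.20].

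Cell cycle transcripts were seen in few NK cells. The proliferation list had a median of -0.36 over 5 of 27 genes. Of these 2 were higher and 2 lower, beside 19.5% and 15.2% of all measured genes. Mki67 had 2 UMIs in 2 of 21 shRFP cells and 17 UMIs in 7 of 76 shSdc1 cells, and these cells had median depths of 1312.5 and 1094 UMIs against 357 and 432 for all NK cells. Top2a had 0 and 9 UMIs in 0 and 6 cells, and Cdk1 0 and 6 in 0 and 4. Thinned to 300 UMIs, Mki67 was seen in 0 of 15 cells [0 to 21.8%] and 4 of 71 (5.63% [1.56 to 13.8]).

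MHC class I genes, read by the inhibitory receptors of other NK cells, had a median log2 ratio of -0.00 over 6 of 12 genes. Of the 6, 1 was higher (B2m) and 1 lower, H2-Q6 at 0.439 [0.184 to 1.09], beside 19.5% and 15.2% of all measured genes. H2-K1 had 45 and 170 UMIs, 1.11 [0.792 to 1.57], and H2-D1 41 and 157, 1.12 [0.790 to 1.62]. Interferon genes were mostly too sparse for a median. Ly6e and Shisa5 of the type I list stood at 0.982 [0.532 to 1.93] and 1.40 [0.779 to 2.70], and Psmb8 of the interferon gamma list at 1.56 [0.644 to 4.57]. Over their 27 and 24 genes the lists summed to 1.42 [1.03 to 2.01] and 1.23 [0.820 to 1.90].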

How the data were processed

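Live CD45+ cells from pooled tumors were profiled with 10x Single Cell 3' V3.1 chemistry, 1 library per group. The authors deposited filtered matrices of raw UMI counts for each barcode and gene, and the file headers attribute these to Cell Ranger 6.1.1 and the submitters' processing notes to the mm10 genome. For the annotation release, nothing was given in the sources used here. Each matrix holds 31253 features, and no normalization had been applied.

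Barcodes with at least 200 genes and under 10% mitochondrial UMIs were kept. NK cells and the classes compared with them were picked by UMI thresholds, without clustering. Other T cells met the CD8 T cell rule but held no Cd8a or Cd8b1 UMI. Macrophages held at least 2 Lyz2 UMIs, at least 2 UMIs over C1qa, C1qb, C1qc, Csf1r and Adgre1, and none of the 6 T cell genes. The members, gene lists and thresholds were chosen with earlier results of these data known. Counts were summed per class and library and scaled to CPM. A gene was measured with at least 20 UMIs over both libraries and counted as higher or lower at 1.5-fold. Against CD8 T cells, it needed 30 UMIs and 2-fold in both libraries. With 1 library per group no test was made. The precision is that of 12313 UMIs in shRFP and 42080 in shSdc1 NK cells.

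Genes named between libraries had at least 30 UMIs and were ranked by the interval bound nearest to 1, the 12 strongest each way. Genes with over 25% of a library's UMIs in 1 cell were left out, as were ribosomal, mitochondrial and unnamed genes, which left 11 higher and 6 lower. Against CD8 T cells 6 higher and 8 lower genes were named by the rule, and list members and the other higher genes were named besides, the latter after their values were seen. Shallow cells were dropped where cells were thinned to 300 UMIs. Doublets were limited by the rule alone: Scrublet's automatic threshold marked 1 and 0 barcodes, so it had not worked, and removing its 218 and 249 top-scoring barcodes was an alternative. Other alternatives changed the NK gene sum, the gene minimum, the scaling and the UMI minimum, or left out single cells. Positions are from GENCODE M21 and promoter windows from RefSeq. The calculations, tested on simulated data, used Python 3.11.15, NumPy 2.4.6, SciPy 1.17.1, scanpy 1.11.5 and matplotlib 3.10.9, with TMM factors from edgeR 4.0.16 in R 4.3.3. Values of 2 migration genes are not reported here.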

Additional observations from a re-analysis of the deposited data

How the results depend on the processing

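The share ratio of NK cells among kept cells stayed between 2.30 and 4.26 in 10 alternatives, and among NK and T cells between 1.07 and 2.05, the lowest with at least 500 genes per barcode (5 and 12 NK cells). The counts of higher and lower genes, 72 and 56, became 26 and 25 with an NK gene sum of at least 3, 176 and 136 with a sum of at least 1, 34 and 21 with at least 500 genes, 18 and 11 with at least 50 UMIs, and 32 and 32 with cells thinned to 300 UMIs. They became 190 and 21 with TMM scaling, 212 and 16 with median-of-ratios scaling, and 141 and 29 without the cell with the most UMIs of the gene. Against CD8 T cells, the 11 higher and 40 lower genes became 7 and 20 with a sum of at least 3, 28 and 91 with at least 1, and 3 and 23 with at least 500 genes. The cause was not tested beyond the fewer or added cells and UMIs.

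The granule list median turned to 0.38 with a sum of at least 3, 0.031 with at least 50 UMIs, 0.40 without the top cells and 0.63 without the shRFP cell that held the Gzmg UMIs, an alternative added after the data were seen. The Gzmc ratio turned to 1.497 (sum of at least 3), 1.12 (sum of at least 1), 2.83 (without top cells) and 5.28 (without that cell). Klrk1 turned to 1.01 with a sum of at least 1 and 1.16 when thinned, Cyba to 0.803 when thinned, Lgals1 to 1.01 with median-of-ratios scaling and Arpc3 to 1.27 with a sum of at least 3. Of 168 list medians 141 stayed within the limits set, and of 377 ratios of named genes 347 did. Of 14 shRFP ratios of NK over CD8 T cells 12 did without the Gzmg cell, an alternative added after the data were seen, and Gzmb and Gzmc did not.

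No paired analysis was possible because each group is 1 library. No replicate could be left out for the same reason. Depth limits every statement on genes with few UMIs in the 21 shRFP NK cells.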

Other observations

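The NK cells examined held only part of the NK-associated transcripts of each library. They held 55.6% of the Ncr1 UMIs of all kept cells in shRFP and 49.2% in shSdc1, but 32.5% and 31.5% of the Gzma UMIs and 8.18% and 6.96% of the Gzmb UMIs. Among the 6 NK genes of the rule the share ran from 28.3% for Klre1 to 83.3% for Klra8, both in shRFP. Barcodes with a T cell UMI held 30 of 60 and 50 of 122 Klre1 UMIs. For Ncr1 they held 0 of 9 and 12 of 63. For Xcl1 the members held 2.31% and 9.62%, and for Il2rb 2.11% and 5.59%. Cells with a T cell UMI held 19 of 169 and 142 of 609 Gzma UMIs. They held 268 of 330 and 677 of 920 Gzmb UMIs, and 226 of 285 and 673 of 876 Il2rb UMIs.

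Barcodes with an NK gene sum of at least 2 that also held a T cell UMI were left out by the rule. They were 6 in shRFP and 16 in shSdc1, with median depths of 912.5 and 709 UMIs, above the 357 and 432 of the NK cells. Gzma had 1 UMI in the 6 and 23 UMIs in the 16, or 174 CPM and 1737 CPM, below the NK cells. Tyrobp had 2 and 8 UMIs in them and Fcer1g 0 and 14. Nkg7 had 15 and 23 UMIs and Klrd1 9 and 8.

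Gzmc was not confined to the NK cells. Its 124 UMIs in shRFP lay in 15 kept cells and its 617 UMIs in shSdc1 in 63 kept cells, of which NK cells held 63 and 62 UMIs. Cells with an NK gene sum of 1 held 3 and 153 Gzmc UMIs, in 1 and 11 cells, and CD8 T cells 5 and 36. Gzmf had 42 UMIs in shRFP, 38 of them in the NK cell described above, and 19 UMIs in shSdc1, all in 3 CD8 T cells.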
